A study of Mus musculus with 8 samples.

Results

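The stage dependence of the Cnot4 genotype effect was measured in mouse spermatocytes as an interaction, which is the difference between Cnot4-null and wild-type (WT) cells at the later stage minus the same difference at the earlier stage. Of the 23235 genes listed in the files, the 9348 with a mean FPKM (fragment count divided by transcript length and library total) of at least 5 over the 8 libraries were tested, and 8741 of these are protein-coding. The cells were sorted by flow cytometry from testes of 6-week-old C57BL/6 males into a leptotene and zygotene pool (LZ) and a pachytene and diplotene pool (PD), with 2 RNA-seq libraries for each genotype at each stage. The Cnot4-null cells carried Cnot4 fl/fl;Stra8-Cre, in which Cre removes exon 2 of Cnot4 in male germ cells and shifts the reading frame. Cells outside the germ line keep the intact gene. The labels name the WT and Cnot4-null libraries by replicate number only, so the p-values below measure the spread between these samples.

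CNOT4 is a RING-type ubiquitin ligase that binds the CCR4-NOT complex, the main deadenylase of the cytoplasm, which shortens poly(A) tails and so starts the decay of mRNAs. Between the LZ and PD stages, male germ cells repair their programmed DNA breaks, switch on the pachytene transcription programme and silence the X and Y chromosomes inside the sex body, a process called meiotic sex chromosome inactivation. Genes needed at the start of meiosis normally give way over the same interval to genes for the meiotic divisions and for sperm formation.

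The files give FPKM and no counts, so the counts behind each value cannot be read from them. The summed FPKM was 761361 and 703540 (WT LZ), 821201 and 699802 (Cnot4-null LZ), 851877 and 847751 (WT PD) and 893372 and 676452 (Cnot4-null PD). The number of genes above 1 FPKM was 11734 and 11823 (WT LZ), 11822 and 11538 (Cnot4-null LZ), 10103 and 10076 (WT PD) and 13887 and 14249 (Cnot4-null PD). The WT PD libraries thus listed the fewest genes above 1 FPKM and the Cnot4-null PD libraries the most. Over the tested genes, the Spearman correlation of duplicates across genes, which are not independent replicates, was 0.933 for WT LZ, 0.943 for Cnot4-null LZ, 0.976 for WT PD and 0.861 for Cnot4-null PD, and the Cnot4-null PD libraries differed most from each other. They also held the highest summed levels of Leydig, myoid, stromal and macrophage markers, which are described with the largest interactions.

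Cnot4 itself (chromosome 6, 34972066 to 35083737 on mm9) was listed at 36.0 and 34.9 FPKM (WT LZ), 43.2 and 34.6 (Cnot4-null LZ), 76.6 and 73.1 (WT PD) and 65.9 and 53.5 (Cnot4-null PD). The genotypes overlapped at LZ, and at PD the Cnot4-null values lay below the WT values. Its interaction was -0.45 (SE 0.29), and limma did not call it (Benjamini-Hochberg adjusted p 0.256), while it was called lower under same median at -1.001. Because the files hold 1 value per gene, the absence of exon 2 is not visible in them, and they do not show how much intact transcript was left.

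In all, 3334 of the 9348 genes (35.7%) had a genotype effect that differed between the stages at an adjusted p under 0.05, by limma on log2(FPKM + 1) with the Benjamini-Hochberg adjustment over all genes. Among protein-coding genes, the effect was higher at PD than at LZ in 2673 (30.6%) and lower in 524 (5.99%). The median interaction of all genes was 0.33 rather than 0, and it moved to -0.22 after quantile normalization, to -0.18 when each library was scaled to the same median and to 0.51 when each was scaled to the same sum. The excess of higher over lower calls depended on this, since quantile normalization called 1221 protein-coding genes higher (14.0%) and 1208 lower (13.8%), and same-median scaling called 2059 higher and 2070 lower, whereas scaling to the same sum called 2896 higher and 615 lower. With single libraries left out in turn, the higher calls of all biotypes (2772) ran from 1670 to 3068 and the lower calls (562) from 55 to 1750. Of the 2673 genes called higher, 1140 were called higher after quantile normalization as well, and of the 524 called lower, 503 were called lower. No gene was called in the opposite direction under either scaling. Key interactions below are therefore also given relative to the median of all genes. Where the call of a named gene was lost or gained by scaling to quantiles, the same median or the same sum, this is given with the interaction found (as lost under quantile at 0.71, for example). Where a call was lost in any of the 8 fits that each left out 1 library, the number of fits that kept it is given as kept in 2 of 8, for example.

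Nearly all genotype effects that were called were at PD. By limma with the Benjamini-Hochberg adjustment within each contrast, the genotype effect was called in 4935 of the 8741 protein-coding genes at PD (56.5%) and in 4 at LZ (0.0458%), and 550 genes had an unadjusted p under 0.05 at LZ. The genes with a higher interaction had a median effect of -0.05 at LZ and of 2.36 at PD, on the log2 scale. The genes with a lower interaction had a median effect of 0.19 at LZ and of -1.27 at PD. The higher interactions were also the larger ones: 1688 of 2673 were at least 2 on the log2 scale and 329 at least 4, against 63 and 1 of the 524 lower ones, where the 1 was Tmed6. A log2 of FPKM + 1 compresses the change of genes near 0, so these sizes are smaller than the ratios of FPKM for genes with low values. No protein-coding gene had an effect called at both stages with opposite signs, but with 4 called at LZ few could. Whether called or not, the 2 effects had opposite signs in 1489 of the 2673 higher and 401 of the 524 lower genes. The same held for 4013 of all 8741 protein-coding genes.

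**Figure D1:**
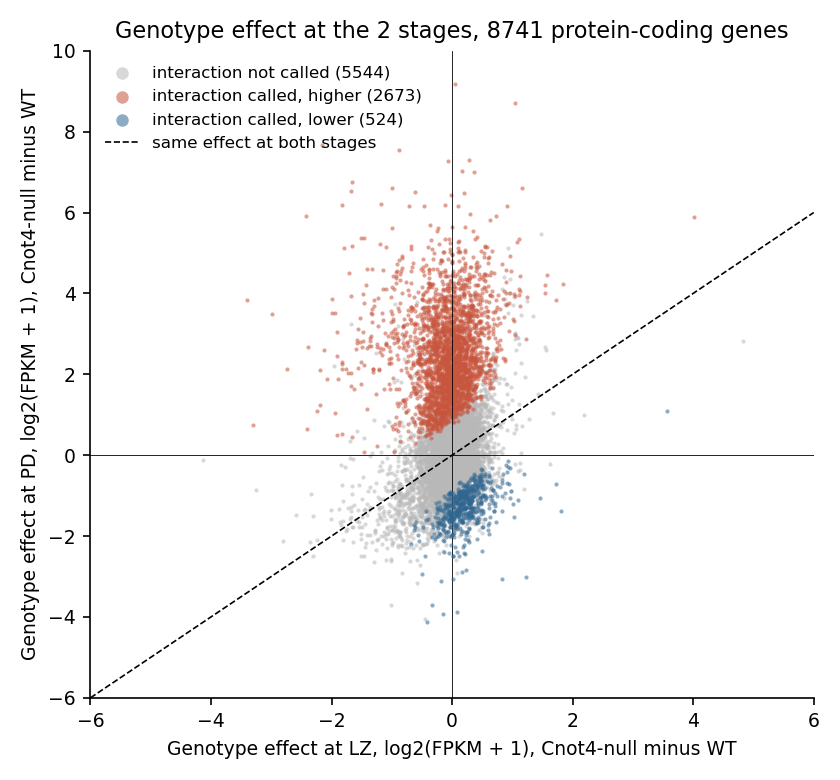
Genotype effect (Cnot4-null minus WT, log2(FPKM + 1)) at LZ on the horizontal axis and at PD on the vertical axis for the 8741 protein-coding genes tested, each a point, with called interactions coloured and a dashed line where both effects are equal. The genes called higher (2673) and lower (524) have median effects of -0.05 and 0.19 at LZ and of 2.36 and -1.27 at PD. Called genes that lie away from 0 on the LZ axis include Apoc2 (4.02), Hddc3 (3.57), Clu (-2.99) and Ptgds (-2.16).

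The 4 protein-coding genes with an effect called at LZ were Apoc2, Hddc3, Hist1h2ak and 1190002H23Rik, and the last pair had no interaction called. Apoc2, an apolipoprotein that activates lipoprotein lipase, was listed at 1.82 and 1.38 FPKM (WT LZ), 46.8 and 35.8 (Cnot4-null LZ), 0 and 0.275 (WT PD) and 91.9 and 46.9 (Cnot4-null PD). The Cnot4-null libraries were above WT at both stages, and the gap was wider at PD, with an interaction of 1.87 (SE 0.49, limma adjusted p 0.0248). That call was lost after quantile normalization (1.33) and was kept in 2 of 8. Hddc3, a hydrolase of the HD domain family, was listed at 0.949 and 0.673 FPKM (WT LZ), 20.5 and 20.2 (Cnot4-null LZ), 11.7 and 8.40 (WT PD) and 26.7 and 18.4 (Cnot4-null PD). Its genotype effect was 3.57 at LZ and 1.09 at PD, so the gap narrowed, with an interaction of -2.48 (SE 0.37, limma adjusted p 0.00318) that was called without each single library. Hist1h2ak, a histone H2A gene of a cluster whose copies can share reads, was listed at 38.7 and 35.8 FPKM in the Cnot4-null LZ libraries, the highest values, and at 0 in both WT PD libraries, with an interaction of -2.00 (limma adjusted p 0.0526) that was called lower under same median at -2.19. 1190002H23Rik was listed at 5.04 and 7.05 FPKM (WT LZ), 0 and 0 (Cnot4-null LZ), 40.6 and 48.6 (WT PD) and 8.96 and 9.85 (Cnot4-null PD), below WT in the Cnot4-null libraries of both stages, with an interaction of 0.67 (limma adjusted p 0.171) that was -0.21 after quantile normalization.

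X-linked genes moved almost uniformly. Of 279 X-linked protein-coding genes tested, 246 (88.2%) had a higher genotype effect at PD than at LZ and 0 a lower one, beside 30.6% and 5.99% of all protein-coding genes, and their median interaction was 2.79, which is 2.46 relative to the median of all genes. The median genotype effect of these genes was 0.13 at LZ and 2.91 at PD. Every autosome stood near the whole set, with a median interaction from 0.035 (chromosome 12) to 0.489 (chromosome 19) and a share called higher from 22.1% to 33.0%. The interaction was above 0 in 278 of the 279, the exception being Ccnb3. The direction held under each scaling, with a median of 1.52 and 120 genes called higher after quantile normalization, 2.46 and 232 after same-median scaling, and 3.09 and 254 after scaling to the same sum, and 0 called lower in each. The count of 246 was 213 and 217 without the WT LZ replicates 1 and 2 in turn, 218 and 203 without the Cnot4-null LZ replicates, 192 and 193 without the WT PD replicates, and 250 and 242 without the Cnot4-null PD replicates.

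The levels show which libraries carried this. The median FPKM of the X-linked genes was 18.7 and 20.4 (WT LZ), 23.2 and 20.1 (Cnot4-null LZ), 0.654 and 0.549 (WT PD) and 11.5 and 13.9 (Cnot4-null PD). Autosomal genes had medians of 18.8 and 18.2, 19.4 and 17.1, 15.2 and 14.7, and 21.9 and 19.4 in the same order. X-linked genes were thus at the autosomal level in the LZ libraries of both genotypes, far below it in WT PD, and in between in Cnot4-null PD. Their share of the summed FPKM was 2.13% and 2.26% (WT LZ), 2.42% and 2.22% (Cnot4-null LZ), 0.0797% and 0.0680% (WT PD), and 1.25% and 1.60% (Cnot4-null PD). In WT PD, 168 and 185 of the 279 genes were below 1 FPKM, against 1 and 5 in Cnot4-null PD. The Cnot4-null PD level was not always the LZ level: both Cnot4-null PD libraries lay below both WT LZ libraries for 187 of the 279 genes. In these bulk samples, the share of silenced cells, silencing per cell, mRNA decay and RNA of other cell types cannot be told apart. The cause was not tested.

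**Figure D2:**
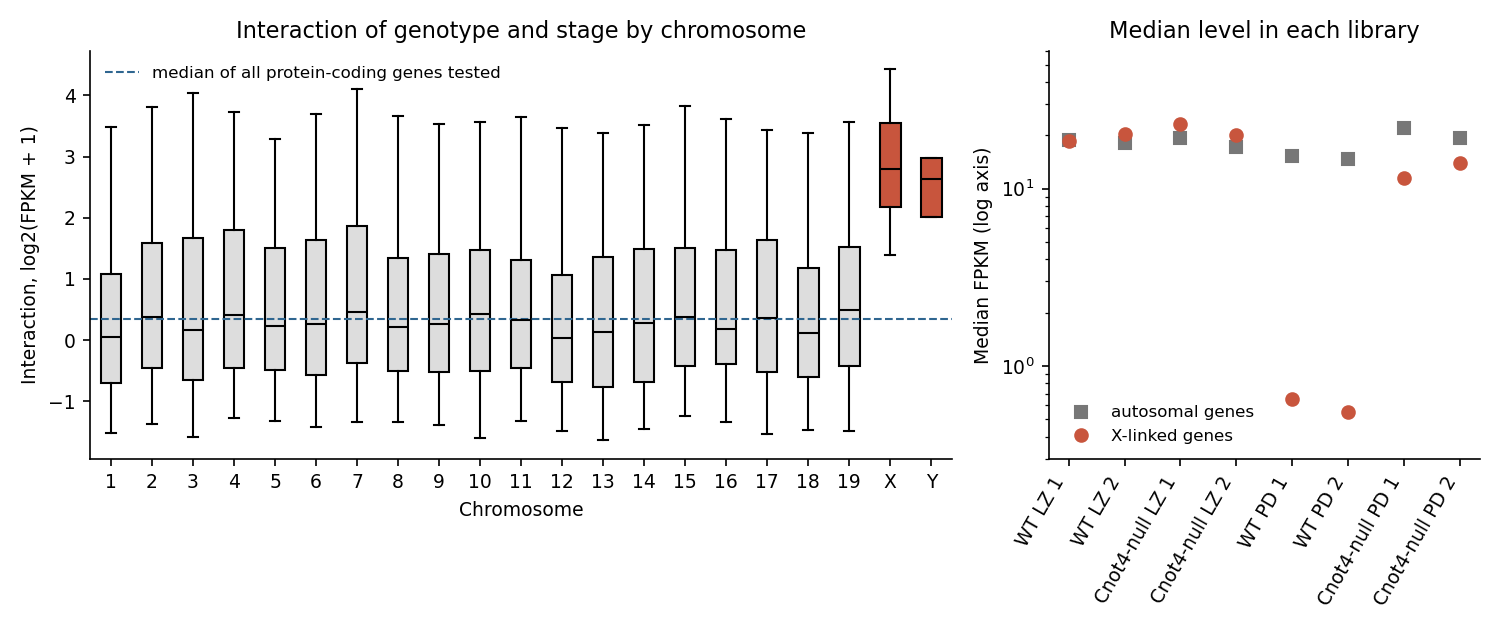
Left, the interaction of genotype and stage on the log2(FPKM + 1) scale by chromosome for protein-coding genes (box, quartiles and median; whiskers, 5th to 95th percentile), with a dashed line at the median of all of them; right, the median FPKM of X-linked and autosomal genes in each of the 8 libraries on a log axis. The X chromosome stands apart on the left with a median of 2.79, and on the right the X-linked genes are at 0.654 and 0.549 FPKM (WT PD) and 11.5 and 13.9 (Cnot4-null PD).

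Single X-linked genes of known function, chosen for display after their values were seen where no list held them, followed the same course. Rbbp7, a histone-binding subunit of several chromatin complexes, was listed at 156 and 154 FPKM (WT LZ), 151 and 131 (Cnot4-null LZ), 7.49 and 1.65 (WT PD) and 132 and 179 (Cnot4-null PD). Only the WT PD libraries were low, and the Cnot4-null PD libraries stood at the level of the LZ libraries. Its interaction was 5.17 (SE 0.70), 4.83 relative to the median of all genes, with a limma adjusted p of 0.00224. Uba1, the ubiquitin-activating enzyme that charges most E2 enzymes, was listed at 59.9 and 49.0 FPKM (WT LZ), 49.3 and 54.8 (Cnot4-null LZ), 1.30 and 0.595 (WT PD) and 30.0 and 31.4 (Cnot4-null PD), with an interaction of 4.11 (SE 0.33, limma adjusted p 0.000643). Its WT PD values lay below all other libraries, and its Cnot4-null PD values lay between those and the LZ values. Hprt, the purine salvage enzyme, was listed at 147 and 189 FPKM (WT LZ), 174 and 135 (Cnot4-null LZ), 2.12 and 1.23 (WT PD) and 29.8 and 45.9 (Cnot4-null PD), and its interaction was 3.97 (SE 0.42, limma adjusted p 0.00117). Hmgb3, a chromatin protein of the HMG-box family, had an interaction of 4.53. Tmsb4x, which encodes the actin-binding thymosin beta 4 and is abundant in many somatic cells, had the highest X-linked interaction at 6.25 (SE 0.44), and at 565 and 672 FPKM its Cnot4-null PD values exceeded its LZ values of 99.1 and 78.9 in WT and 54.6 and 30.6 in Cnot4-null.

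Some X-linked genes serve translation. Rpl10, Rpl36a, Rpl39 and Rps4x encode ribosomal proteins and had interactions of 4.70, 5.02, 5.18 and 5.18. Rpl10 was listed at 849 and 746 FPKM (WT LZ), 1019 and 796 (Cnot4-null LZ), 25.4 and 15.5 (WT PD) and 511 and 736 (Cnot4-null PD). Eif1ax, a translation initiation factor that helps select the start codon, was listed at 314 and 335 FPKM (WT LZ), 343 and 340 (Cnot4-null LZ), 4.79 and 4.71 (WT PD) and 148 and 111 (Cnot4-null PD), with an interaction of 4.42 (SE 0.29, limma adjusted p 0.000562). Both genes were more than 10 times lower in WT PD than at LZ and were nearer to the LZ level in Cnot4-null PD. Taf7l, a testis paralogue of a TFIID subunit, was listed at 383 and 430 FPKM (WT LZ), 518 and 392 (Cnot4-null LZ), 4.88 and 4.34 (WT PD) and 95.2 and 110 (Cnot4-null PD), and its interaction was 4.05 (SE 0.31, limma adjusted p 0.000633). Retrocopies of ribosomal protein genes elsewhere in the genome can share reads with these genes, and the values cannot separate them.

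Some X-linked genes showed little or no interaction. Zfx, a zinc finger transcription factor, was listed at 16.6 and 15.1 FPKM (WT LZ), 18.8 and 14.6 (Cnot4-null LZ), 1.49 and 1.24 (WT PD) and 3.01 and 4.56 (Cnot4-null PD), and its interaction of 0.94 was not called (limma adjusted p 0.09) and was -1.34 after quantile normalization. Ccnb3, a cyclin of the leptotene and zygotene stages, was listed at 10.3 and 15.4 FPKM (WT LZ) and 30.6 and 16.3 (Cnot4-null LZ) and below 2 in each PD library, with an interaction of -0.04 (SE 0.64) that was 0.12 after scaling to the same sum. On the Y chromosome 4 genes were tested and 3 called higher. Ube1y1, the Y-linked counterpart of Uba1, was listed at 50.0 and 59.6 FPKM (WT LZ), 68.3 and 59.9 (Cnot4-null LZ), 1.02 and 1.12 (WT PD) and 20.6 and 24.8 (Cnot4-null PD), with an interaction of 3.29 (SE 0.28, limma adjusted p 0.000739). Ddx3y, an RNA helicase, had an interaction of 2.38 (limma adjusted p 0.0255, kept in 3 of 8, lost under quantile at 0.79) and Eif2s3y, a translation initiation factor subunit, of 2.88. Rbmy1a1, a germ cell RNA-binding protein, was listed at 0 and 0.0852 FPKM (WT PD) and 1.47 and 1.24 (Cnot4-null PD), and its interaction of 0.95 was not called (limma adjusted p 0.18) and was -0.32 after quantile normalization.

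Promoters of 4 genes are shown as single examples of genes whose genotype effect differed between the stages, and none stands for its list: an X-linked gene (Rps4x) and a gene of the meiotic entry group (Sohlh1), whose effects were higher at PD, and a chromosome axis gene (Sycp3) and a histone variant gene (H2afz), whose effects were lower. They were chosen after their values were seen and because they hold motif letters. Rps4x was listed at 37.7 and 30.7 FPKM (WT LZ), 58.2 and 48.4 (Cnot4-null LZ), 5.15 and 1.40 (WT PD) and 158 and 288 (Cnot4-null PD), and H2afz, which encodes the histone variant H2A.Z, at 620 and 704 FPKM (WT LZ), 1003 and 779 (Cnot4-null LZ), 1859 and 1880 (WT PD) and 767 and 494 (Cnot4-null PD). The WT PD libraries were the lowest for Rps4x and the highest for H2afz, and the interaction was 5.18 (SE 0.66, limma adjusted p 0.00192) for the former and -2.02 (SE 0.36, limma adjusted p 0.00624) for the latter. The sequences are from RefSeq on GRCm38.p6, 300 bases from 250 before to 50 after the start of the gene, 5′ to 3′ on the strand of the gene: chrX:102189342-102189641 (minus strand) for Rps4x, chr2:25847199-25847498 (minus strand) for Sohlh1, chr10:88459337-88459636 (plus strand) for Sycp3 and chr3:137864237-137864536 (plus strand) for H2afz. Capitals mark the letters of a searched motif on either strand.
Rps4x: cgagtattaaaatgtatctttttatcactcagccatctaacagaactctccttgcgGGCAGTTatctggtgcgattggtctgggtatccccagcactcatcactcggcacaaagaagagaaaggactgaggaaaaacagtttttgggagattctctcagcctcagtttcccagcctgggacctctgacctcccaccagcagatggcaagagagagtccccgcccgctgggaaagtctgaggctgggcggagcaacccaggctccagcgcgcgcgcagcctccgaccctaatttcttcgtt
Sohlh1: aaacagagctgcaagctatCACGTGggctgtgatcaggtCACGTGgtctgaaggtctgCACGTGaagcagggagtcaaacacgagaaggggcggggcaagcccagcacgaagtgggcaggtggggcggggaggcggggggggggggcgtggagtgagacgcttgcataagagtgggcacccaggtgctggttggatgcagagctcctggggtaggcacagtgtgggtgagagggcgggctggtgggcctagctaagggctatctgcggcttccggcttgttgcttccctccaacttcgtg
Sycp3: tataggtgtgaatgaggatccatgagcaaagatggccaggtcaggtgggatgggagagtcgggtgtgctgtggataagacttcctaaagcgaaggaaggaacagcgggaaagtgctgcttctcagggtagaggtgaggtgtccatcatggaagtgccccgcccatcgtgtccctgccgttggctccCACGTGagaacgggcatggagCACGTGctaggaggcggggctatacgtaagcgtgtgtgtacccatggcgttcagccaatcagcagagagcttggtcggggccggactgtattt
H2afz: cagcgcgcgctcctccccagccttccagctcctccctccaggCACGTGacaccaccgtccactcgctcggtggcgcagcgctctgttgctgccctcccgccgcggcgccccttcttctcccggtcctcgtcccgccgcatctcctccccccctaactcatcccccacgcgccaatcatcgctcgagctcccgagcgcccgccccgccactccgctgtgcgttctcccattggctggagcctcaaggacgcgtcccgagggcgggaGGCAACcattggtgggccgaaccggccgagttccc
The motifs searched, on both strands, were GGCAGTT (recognised by MYBL1), GTTGCC (part of the site of RFX factors), TGACGTCA (the cAMP response element) and CACGTG (the E-box). The Rps4x window holds GGCAGTT, the Sohlh1 window 3 copies of CACGTG, the Sycp3 window 2 copies of CACGTG, and the H2afz window CACGTG and the reverse complement of GTTGCC. Of the 8741 protein-coding genes tested, 7146 had a promoter in the RefSeq table. Among promoters of genes called higher (2197) and lower (416), GGCAGTT was found in 2.73% and 4.09%, beside 3.95% of all tested genes and 4.14% of all 27025 promoters of the table. GTTGCC was found in 12.4% and 15.4%, beside 14.2% and 12.7%. TGACGTCA was found in 3.87% and 3.12%, beside 3.79% and 1.88%, and CACGTG in 11.7% and 11.5%, beside 11.2% and 7.24%. In the promoters of 247 X-linked genes, the shares were 5.67%, 13.8%, 1.21% and 12.1% in the same order. Matches of different motifs shared a base in 14 of the promoters. These shares are descriptions and were not tested, and a match is not evidence of binding.

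Function lists, written with earlier results of these data known, were read by how many members were called and by the median interaction of the members, beside 30.6% higher, 5.99% lower and a median of 0.35 (-0.21 after quantile normalization) for all protein-coding genes. The lists with the highest medians of tested members were immediate early genes (4.19), acrosome, sperm and spermatid nucleus (3.27), meiotic entry and spermatogonial genes (2.57) and somatic glycolysis enzymes (2.201). The lowest medians were those of pachytene and spermatid transcription regulators (-0.85), the piRNA pathway and germ granules (-0.68), the ADAM family (-0.67) and the axoneme and intraflagellar transport (-0.52). These 8 medians kept their sign under each scaling. The medians of 13 of the 27 lists did not, and they are named where those lists are described. The filter on the mean of the 8 libraries also lets in genes that are high in 1 group alone, so the shares are those of the members tested. Without a filter, chosen as an alternative after seeing the data, the lists with the highest medians were the same 4 (3.76, 2.95, 1.80 and 2.18), and the ADAM family had a median of 0.84. The balance of calls also moved with the scaling, so brackets after the counts of a list give the members called higher and lower after quantile normalization and after same-median scaling.

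**Figure D3:**
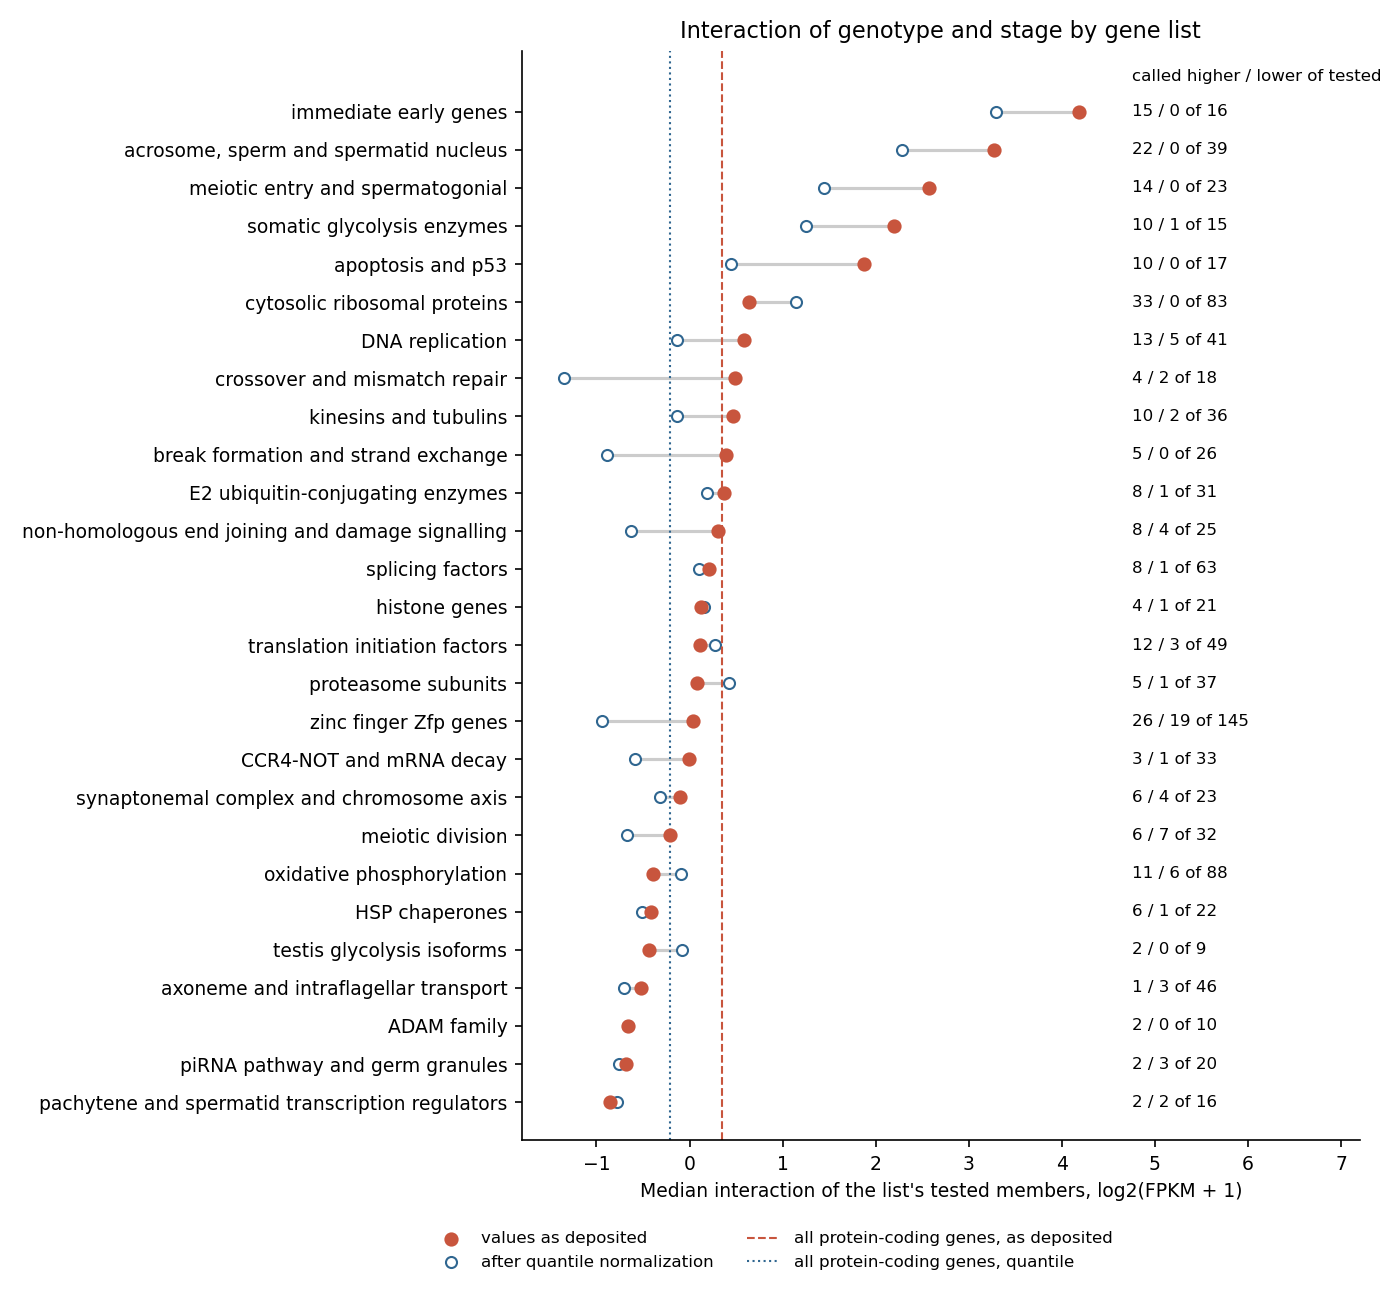
Median interaction of the tested members of each of the 27 function lists on the log2(FPKM + 1) scale, from the values as deposited (filled) and after quantile normalization (open), with vertical lines at the medians of all protein-coding genes and, at the right, the members called higher and lower of those tested. Lists range from 4.19 for immediate early genes to -0.85 for pachytene and spermatid transcription regulators, and the open points of the crossover and break formation lists lie on the other side of 0 from the filled ones.

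Genes of spermatogonia and of the entry into meiosis had a higher genotype effect at PD in 14 of 23 tested members and a lower one in 0 (quantile 8 and 2, same median 13 and 3), with a median of 2.57 (1.44 after quantile normalization). Uchl1, a ubiquitin hydrolase abundant in spermatogonia, was listed at 411 and 422 FPKM (WT LZ), 250 and 355 (Cnot4-null LZ), 10.9 and 6.22 (WT PD) and 202 and 232 (Cnot4-null PD). Dmrt1, a transcription factor that controls the switch from mitosis to meiosis, was listed at 174 and 150 FPKM (WT LZ), 120 and 167 (Cnot4-null LZ), 1.88 and 1.03 (WT PD) and 48.1 and 95.7 (Cnot4-null PD). Sohlh1, a helix-loop-helix factor of differentiating spermatogonia whose promoter is shown above, was listed at 73.0 and 64.9 FPKM (WT LZ), 48.8 and 67.8 (Cnot4-null LZ), 1.42 and 0.542 (WT PD) and 41.3 and 51.3 (Cnot4-null PD). In these 3 genes the WT PD libraries were the lowest, and the Cnot4-null PD libraries lay at or below the LZ libraries. The interactions were 5.04 (SE 0.41), 5.03 (SE 0.51) and 4.86 (SE 0.40), with limma adjusted p of 0.000678, 0.00109 and 0.000682. Kit, the receptor of stem cell factor on differentiating spermatogonia and also on Leydig cells, had an interaction of 4.02 (SE 0.63, limma adjusted p 0.0038). Tex101, a surface glycoprotein of germ cells, had an interaction of -0.82 that was not called.

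DNA replication genes, which mark the S phase before meiosis, had 13 of 41 members called higher and 5 lower (quantile 10 and 6, same median 12 and 9), with a median of 0.59 that became -0.13 after quantile normalization. Mcm2, a subunit of the replicative helicase, was listed at 58.4 and 46.4 FPKM (WT LZ), 50.9 and 49.3 (Cnot4-null LZ), 0.526 and 0.815 (WT PD) and 19.4 and 19.3 (Cnot4-null PD), with an interaction of 3.67 (SE 0.28, limma adjusted p 0.000639). The WT PD values were below 1 FPKM and separate from those of the other 6 libraries. Cdt1, which loads that helicase, Fen1, a flap endonuclease, and Mcm4, another helicase subunit, had interactions of 3.49, 3.39 and 3.04. Pcna, the sliding clamp, took the other direction, with an interaction of -1.37 (limma adjusted p 0.0303) that was kept in 2 of 8. Rfc4, a subunit of the clamp loader, had an interaction of 0.06 that was not called and was -0.50 after same-median scaling.

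Enzymes of glycolysis were read in lists of somatic and testis isoforms, and the difference between the lists was not tested. Of 15 enzymes used in somatic cells, 10 were called higher and 1 lower (quantile 7 and 1, same median 9 and 1), with a median of 2.201 (1.25 after quantile normalization), and of 9 testis isoforms 2 were called higher and 0 lower (quantile 1 and 0, same median 1 and 1), with a median of -0.44 (-0.09 after quantile normalization). Gapdh, a somatic glycolytic dehydrogenase, was listed at 211 and 237 FPKM (WT LZ), 178 and 196 (Cnot4-null LZ), 9.22 and 8.22 (WT PD) and 89.3 and 120 (Cnot4-null PD), with an interaction of 3.69 (SE 0.30, limma adjusted p 0.000679). Ldhb, the heart-type subunit of lactate dehydrogenase, was listed at 16.6 and 18.8 FPKM (WT LZ), 8.43 and 1.36 (Cnot4-null LZ), 2.48 and 2.70 (WT PD) and 33.6 and 47.9 (Cnot4-null PD), with an interaction of 5.51 (SE 0.82). Cnot4-null was below WT at LZ and above it at PD for Ldhb. Eno1, an enolase, and Pkm2, a pyruvate kinase, had interactions of 4.46 and 3.34, and both genes have many processed copies that can share reads. The 1 lower member was Pfkp, a phosphofructokinase, with an interaction of -1.31 (limma adjusted p 0.0336) that was kept in 1 of 8. Ldha, the muscle-type subunit, was not called (-0.09, 0.32 after quantile normalization). Ldhc, the testis lactate dehydrogenase, had an interaction of -0.55 that was not called. The 2 testis isoforms called higher, Gapdhs (2.91, lost under quantile at 2.34 and same median at 2.40) and Aldoart2 (3.47), are genes of late spermatids, and each call was kept in 2 of 8.

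Genes for the formation of DNA breaks and for strand exchange had 5 of 26 members called higher and 0 lower (quantile 2 and 3, same median 5 and 9), with a median of 0.39 that became -0.89 after quantile normalization and -0.12 after same-median scaling. Dmc1, the meiotic recombinase, was listed at 75.7 and 91.5 FPKM (WT LZ), 132 and 81.8 (Cnot4-null LZ), 1.16 and 0.590 (WT PD) and 8.58 and 9.22 (Cnot4-null PD). Its LZ values were more than 8 times those of any PD library, and within PD the Cnot4-null values were above the WT ones. The interaction was 2.098 (SE 0.40, limma adjusted p 0.00776), 1.76 relative to the median of all genes, and 0.64 and not called after quantile normalization. Rpa2, a subunit of the single-strand binding protein RPA, had an interaction of 1.96 (SE 0.31, limma adjusted p 0.0038). Mcm8, a helicase of recombination, and Rec114, listed as 2410076I21Rik and needed for break formation, had interactions of 2.07 (lost under quantile at 0.71) and 2.92. The remaining call, Brca1, a repair protein, had an interaction of 1.95 that was -0.04 and not called after quantile normalization and was kept in 2 of 8. Psmc3ip, a cofactor of strand exchange, had an interaction of -0.65 that was not called, and was called lower under same median at -1.21.

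The crossover and mismatch repair list had 4 of 18 members called higher and 2 lower (quantile 1 and 8, same median 4 and 5), with a median of 0.49 that became -1.35 after quantile normalization. Pms1, a mismatch repair factor, had an interaction of 3.13 (lost under quantile at 1.71), and Tex11, an X-linked crossover protein, of 2.41 (lost under quantile at 0.93). Pms2, also a mismatch repair factor, had an interaction of 1.76 (limma adjusted p 0.0134, kept in 7 of 8) that turned to -0.41 and was not called after quantile normalization. The lower members were Cntd1, a cyclin-like protein that matures crossovers, and Msh3, a mismatch repair protein. Cntd1 was listed at 6.23 and 8.22 FPKM (WT LZ), 5.34 and 5.84 (Cnot4-null LZ), 58.2 and 58.1 (WT PD) and 16.7 and 15.6 (Cnot4-null PD), with an interaction of -1.48 (SE 0.28, limma adjusted p 0.00722) that was called without each single library. Msh3 had an interaction of -1.18 and was kept in 2 of 8. Msh6, a mismatch repair protein, had an interaction of 0.49 that was not called and was -0.29 after quantile normalization.

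Genes of the synaptonemal complex and chromosome axis moved in both directions, with 6 of 23 called higher, 4 lower (quantile 4 and 6, same median 6 and 9) and a median of -0.11 (0.07 after scaling to the same sum). The higher members included cohesin subunits of both mitotic and meiotic cells. Smc3, a core cohesin subunit, had an interaction of 2.56 (SE 0.35, limma adjusted p 0.00244). Smc1a, its X-linked partner in mitotic cohesin, had an interaction of 1.98 that was 0.05 and not called after quantile normalization. Fkbp6, a chaperone cofactor of the piRNA pathway that also locates to the complex, and Syce2, a central element protein, had interactions of 2.54 and 2.03. The 4 lower members were Hormad1, Sycp3, Syce1 and Sycp2. Sycp3, the axis protein used to stage spermatocytes, was listed at 650 and 906 FPKM (WT LZ), 1725 and 907 (Cnot4-null LZ), 785 and 799 (WT PD) and 473 and 260 (Cnot4-null PD). Its Cnot4-null PD values were the lowest among PD libraries, while at LZ the Cnot4-null values reached or exceeded the WT values, with an interaction of -1.88 (SE 0.56, limma adjusted p 0.0365). Hormad1, an axis protein that is removed from synapsed chromosomes, had an interaction of -1.89, Syce1, a central element protein, of -1.46, and Sycp2, the partner of Sycp3, of -1.15 (lost under quantile at -0.80). Each of these 4 calls was kept in 2 of 8. Syce3, also of the central element, had an interaction of 0.17 that was not called and was -0.39 after same-median scaling.

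Non-homologous end joining and damage signalling had 8 of 25 members called higher and 4 lower (quantile 3 and 8, same median 6 and 5), with a median of 0.30 that became -0.63 after quantile normalization and -0.21 after same-median scaling. Xrcc4, which holds the ligase of end joining, was listed at 7.76 and 15.7 FPKM (WT LZ), 18.1 and 12.5 (Cnot4-null LZ), 140 and 148 (WT PD) and 47.1 and 23.9 (Cnot4-null PD). At LZ the genotypes overlapped, and at PD both Cnot4-null values lay far below both WT values while staying above the LZ values. The interaction was -2.47 (SE 0.58, limma adjusted p 0.0166), and the call was lost without WT LZ replicate 1, Cnot4-null LZ replicate 1 or either WT PD replicate. The other lower members were Atr (-1.68), the kinase that acts on unsynapsed chromosomes, Mdc1 (-1.11), which spreads the damage signal over the sex body, and Rif1 (-0.94), an effector of 53BP1. Each of these calls was kept in 3 or fewer of 8. Xrcc6, which encodes the Ku70 subunit of the end-binding factor, had a higher interaction of 2.34 (SE 0.29, limma adjusted p 0.00175). Rad9, a clamp of the damage checkpoint, had an interaction of 2.46, and Chek2, a checkpoint kinase, of 2.02, which was kept in 2 of 8 and was lost under quantile at 0.27 and same median at 1.68. Trp53bp1, which encodes 53BP1, was listed at 17.9 and 18.2 FPKM (WT LZ), 20.1 and 21.8 (Cnot4-null LZ), 10.2 and 9.96 (WT PD) and 15.9 and 15.6 (Cnot4-null PD). Its genotype effect was 0.60 at PD, and the interaction of 0.39 was not called (limma adjusted p 0.232) and was -0.31 after quantile normalization and -0.13 after same-median scaling. Parp1, a sensor of strand breaks, had an interaction of 0.84 that was not called, and was called higher under same sum at 1.02.

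The CCR4-NOT complex and the wider mRNA decay machinery had 3 of 33 members called higher and 1 lower (quantile 3 and 2, same median 3 and 8), with a median of -0.01 (0.17 after scaling to the same sum, 0.035 without a filter), below the median of all genes. Cnot1, the scaffold of the complex, was the lower member and was listed at 30.7 and 30.7 FPKM (WT LZ), 40.8 and 35.0 (Cnot4-null LZ), 75.0 and 69.4 (WT PD) and 35.6 and 26.7 (Cnot4-null PD). Its level in Cnot4-null PD was near that of the LZ libraries, and its interaction was -1.49 (SE 0.30, limma adjusted p 0.00909), called without each single library. The other subunits were not called: Cnot2 (-0.84, called lower under same median at -1.39) and Cnot3 (1.62, -0.05 after quantile normalization) of the NOT module, Cnot9, listed as Rqcd1 (-0.30, called lower under same median at -0.84), Cnot10 (0.63, called higher under same sum at 0.81) and Cnot11, listed as D1Bwg0212e (-0.47), and the deadenylases Cnot6 (-0.16, 0.02 after scaling to the same sum), Cnot6l (1.21, -0.59 after quantile normalization), Cnot7 (-0.30) and Cnot8 (0.97). The higher members act beside the complex. Btg2, an antiproliferative protein that binds the deadenylases, was listed at 17.8 and 14.9 FPKM (WT LZ), 16.8 and 13.4 (Cnot4-null LZ), 0.0890 and 0.163 (WT PD) and 8.68 and 28.6 (Cnot4-null PD), with an interaction of 4.02 (SE 0.68, limma adjusted p 0.00497). Parn, a deadenylase outside the complex, had an interaction of 3.22 (SE 0.28, limma adjusted p 0.000739). Xrn2, the nuclear 5′ to 3′ exonuclease, had an interaction of 1.57. Pabpc1, the cytoplasmic poly(A)-binding protein, had an interaction of -1.14 that was not called, and was called lower under quantile at -0.95, same median at -1.70 and same sum at -0.96.

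Regulators of the pachytene and spermatid programme had the lowest median of the lists, -0.85, with 2 of 16 members called higher and 2 lower (quantile 2 and 3, same median 2 and 8). Tbpl1, the germ cell relative of TATA-binding protein, was listed at 29.3 and 37.0 FPKM (WT LZ), 33.1 and 33.7 (Cnot4-null LZ), 334 and 335 (WT PD) and 127 and 58.0 (Cnot4-null PD). In WT the PD values were about 10 times the LZ values, and the Cnot4-null PD values lay between. Its interaction was -1.97 (SE 0.50, limma adjusted p 0.0215) and was kept in 2 of 8. Tcfl5, a helix-loop-helix factor of pachytene spermatocytes, had an interaction of -1.81 (SE 0.47, limma adjusted p 0.0229), kept in 3 of 8. The higher members were Taf7l, described with the X-linked genes, and Fhl5 (3.91, kept in 1 of 8), a coactivator of CREM in spermatids. Meig1, which serves sperm tail assembly, had an interaction of -0.72 that was not called.

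The piRNA pathway and germ granules had 2 of 20 members called higher (Fkbp6 and Mov10l1) and 3 lower (quantile 1 and 5, same median 1 and 12), with a median of -0.68. Mael, a factor that silences transposons, was listed at 247 and 356 FPKM (WT LZ), 311 and 317 (Cnot4-null LZ), 1278 and 1393 (WT PD) and 611 and 374 (Cnot4-null PD), with an interaction of -1.56 (SE 0.41, limma adjusted p 0.0239). Ddx4, the germ cell helicase VASA, was listed at 153 and 151 FPKM (WT LZ), 168 and 146 (Cnot4-null LZ), 282 and 311 (WT PD) and 165 and 132 (Cnot4-null PD), with an interaction of -1.05 (SE 0.28, limma adjusted p 0.0268, lost under quantile at -0.66). For both, Cnot4-null PD stood below WT PD and near or above the LZ level. Tdrd3, a tudor protein, had an interaction of -1.30, and each of the 3 lower calls was kept in 3 or fewer of 8. Mov10l1, the helicase that starts piRNA production, had an interaction of 1.00, kept in 2 of 8 and lost under quantile at 0.70 and same median at 0.47. Gtsf1, a piRNA cofactor, had an interaction of -1.13 that was not called, and was called lower under same median at -1.69.

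The meiotic division list had 6 of 32 members called higher and 7 lower (quantile 1 and 10, same median 2 and 15), with a median of -0.21 (-0.68 after quantile normalization). Pttg1, or securin, which holds back the separation of chromosomes, was listed at 139 and 139 FPKM (WT LZ), 220 and 205 (Cnot4-null LZ), 661 and 622 (WT PD) and 330 and 201 (Cnot4-null PD). The genotype effect was 0.61 at LZ and -1.31 at PD, with an interaction of -1.92 (SE 0.36, limma adjusted p 0.00734) that was called without each single library. Cks2, a small subunit of the cyclin-dependent kinases that is needed for meiosis, had an interaction of -1.63 (SE 0.27, limma adjusted p 0.00483), also called without each single library. Aurka, a spindle kinase, had an interaction of -1.76, kept in 2 of 8. In the other direction, Cdc25b, a phosphatase that activates Cdk1, had an interaction of 2.197 (kept in 7 of 8, lost under quantile at 0.40), and Sgol1, a protector of cohesin, one of 1.81 that was -0.04 and not called after quantile normalization. Birc5, or survivin, had an interaction of -1.02 that was not called, and was called lower under quantile at -0.68, same median at -1.57 and same sum at -0.84.

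Genes of the acrosome, the sperm and the spermatid nucleus, which are normally most active after meiosis, had 22 of 39 members called higher and 0 lower (quantile 18 and 1, same median 20 and 4), with a median of 3.27 (2.28 after quantile normalization). Of the 32 that passed the filter by the 6 libraries other than Cnot4-null PD, 16 were called higher, beside 2308 of 8202 protein-coding genes. Without a filter 10 of 42 were called higher, beside 2850 of 20476 protein-coding genes. Prm1, a protamine that packs sperm DNA, was listed at 911 and 612 FPKM (WT LZ), 1991 and 240 (Cnot4-null LZ), 176 and 74.8 (WT PD) and 7592 and 2949 (Cnot4-null PD). The Cnot4-null PD libraries were the highest and the WT PD libraries the lowest, and the LZ duplicates differed widely in Cnot4-null. Its interaction was 5.46 (SE 1.37, limma adjusted p 0.0206) and was kept in 4 of 8. Tnp1 and Tnp2, the transition proteins that precede protamines, had interactions of 5.16 and 5.65, kept in 4 and 5 of 8. Spaca4, a sperm surface protein, had an interaction of 5.47 (SE 0.80, limma adjusted p 0.00303). H1fnt, a linker histone of spermatid heads, had an interaction of 3.51 (kept in 6 of 8). Crisp2, a sperm protein that WT cells already make in pachytene, had an interaction of -1.51 that was not called. Genes of the axoneme and of intraflagellar transport did not share this direction, with 1 of 46 called higher, 3 lower (quantile 1 and 4, same median 1 and 17) and a median of -0.52. Ropn1, a fibrous sheath protein, was the higher one (4.43, kept in 5 of 8), and Ift80 (-1.52, kept in 2 of 8), Bbs7 (-1.504, kept in 6 of 8) and Dnaja1 (-0.86, kept in 2 of 8, lost under quantile at -0.60) were the lower ones. Dnaja1 is a chaperone and not an axoneme gene, and the list named it in error, so 2 of the lower calls belong to the group.

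Immediate early genes, which respond within minutes to growth factors, stress and tissue dissociation, had 15 of 16 members called higher and 0 lower (quantile 5 and 1, same median 15 and 0), with a median of 4.19 (3.29 after quantile normalization). This share depends on the outcome, since members could pass the filter through high Cnot4-null PD values alone. Of the 25 listed genes 16 passed it, and only 7 of them also by the 6 libraries other than Cnot4-null PD. Of these 7, 6 were called higher, beside 2308 of the 8202 protein-coding genes that passed in this way. Without a filter 6 of the 25 were called higher, beside 2850 of 20476 protein-coding genes. The median interaction was 4.15 for these 7 and 3.76 for all 25. Fos, a subunit of AP-1, was listed at 9.96 and 5.61 FPKM (WT LZ), 17.1 and 13.2 (Cnot4-null LZ), 1.90 and 0 (WT PD) and 64.9 and 227 (Cnot4-null PD). Both Cnot4-null PD values exceeded all others, and they differed from each other by more than a factor of 3. The interaction was 5.26 (SE 0.96, limma adjusted p 0.00675). Gadd45g, a stress response protein, had an interaction of 5.65 (SE 0.76, limma adjusted p 0.00222). Ctgf, a matricellular growth factor, had an interaction of 5.16. Zfp36, or tristetraprolin, which binds AU-rich mRNAs and recruits CCR4-NOT to them, was listed at 6.38 and 4.52 FPKM (WT LZ), 4.05 and 2.17 (Cnot4-null LZ), 0.246 and 0.301 (WT PD) and 14.2 and 139 (Cnot4-null PD), with an interaction of 5.86 (SE 1.28, limma adjusted p 0.0128, kept in 6 of 8) that was not called after quantile normalization (4.83). Its relatives Zfp36l1 and Zfp36l2 had interactions of 5.04 and 3.44. Ier5, an immediate early nuclear protein, was not called (-0.70) and was called lower under quantile at -2.67.

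Genes of apoptosis and the p53 pathway had 10 of 17 members called higher and 0 lower (quantile 4 and 2, same median 9 and 5), with a median of 1.87 (0.44 after quantile normalization). Bax, which opens the outer mitochondrial membrane, was listed at 127 and 143 FPKM (WT LZ), 106 and 129 (Cnot4-null LZ), 0.385 and 2.29 (WT PD) and 45.5 and 70.5 (Cnot4-null PD). The WT PD libraries were the lowest, and the Cnot4-null PD libraries lay between them and the LZ libraries. The interaction was 4.95 (SE 0.59, limma adjusted p 0.00152). Cycs, the somatic cytochrome c, had an interaction of 3.31 (SE 0.31, limma adjusted p 0.000938). Its testis counterpart Cyct was listed at 106 and 79.2 FPKM (WT LZ), 114 and 88.7 (Cnot4-null LZ), 1179 and 1267 (WT PD) and 722 and 371 (Cnot4-null PD), with the WT PD libraries the highest, and its interaction of -1.37 was not called, and was called lower under quantile at -1.10, same median at -1.93 and same sum at -1.19. Bok, a BCL2 family member, had an interaction of 3.26.

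Larger families of housekeeping genes varied with the scaling. Of 83 cytosolic ribosomal protein genes, 33 were called higher and 0 lower (quantile 59 and 1, same median 18 and 7), with a median of 0.64 (1.15 after quantile normalization, 0.08 after same-median scaling), and the 4 X-linked members, described above, had the highest interactions of the list. Rps28 (0.22) was not called and was -0.34 after same-median scaling and called higher under quantile at 0.78. Of 88 oxidative phosphorylation genes, 11 were called higher and 6 lower (quantile 18 and 11, same median 11 and 44), with a median of -0.40 (-0.09 after quantile normalization and -0.95 after same-median scaling). Cox8a, the common subunit 8 of cytochrome oxidase, was listed at 693 and 599 FPKM (WT LZ), 522 and 549 (Cnot4-null LZ), 48.1 and 33.7 (WT PD) and 514 and 520 (Cnot4-null PD), with an interaction of 3.92 (SE 0.31, limma adjusted p 0.000643). Its testis counterpart Cox8c had an interaction of -0.96 that was not called, and was called lower under same median at -1.52. The X-linked Cox7b had an interaction of 4.69 and its testis counterpart Cox7b2 one of -2.31 (SE 0.61, limma adjusted p 0.0245, kept in 2 of 8). Cox7a1, a muscle-type subunit, had an interaction of 4.65, and Ndufb11, an X-linked subunit of complex I, one of 4.33.

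Translation initiation factors had 12 of 49 members called higher and 3 lower (quantile 9 and 5, same median 8 and 18), with a median of 0.12 that was -0.41 after same-median scaling. Eif4ebp1, the repressor of cap binding controlled by mTOR, had an interaction of 4.23, Eif4g1, the scaffold of the cap complex, of 3.17, and Eif5a, an elongation factor, was not called (0.18, -0.38 after same-median scaling). Proteasome subunits had 5 of 37 higher and 1 lower (quantile 8 and 2, same median 3 and 10), with a median of 0.08 that was -0.47 after same-median scaling. The lower member was Psma8, the core subunit of testis, at -1.71 (SE 0.45, limma adjusted p 0.0242, kept in 2 of 8). The higher members included Psma7, a core subunit, at 2.66, Psmb10, an immunoproteasome subunit, at 2.69 (kept in 7 of 8, lost under quantile at 1.66) and the X-linked Psmd10 at 2.65 (kept in 3 of 8, lost under quantile at 1.15), while Psmb1 was not called (-0.08, 0.39 after quantile normalization). E2 ubiquitin-conjugating enzymes, the class of enzyme that works with ligases such as CNOT4, had 8 of 31 higher and 1 lower (quantile 3 and 4, same median 4 and 7), with a median of 0.37 that was -0.18 after same-median scaling. Ube2a, an X-linked E2 of histone ubiquitination, had an interaction of 2.70 (kept in 5 of 8, lost under quantile at 1.49), Ube2n, which builds K63 chains, of 1.67 (kept in 4 of 8, lost under quantile at 1.59 and same median at 1.13), and Ube2v2, its cofactor, of 1.62 (kept in 7 of 8). Ube2s, which extends K11 chains, was not called (-0.22, 0.24 after quantile normalization). Ube2t, the E2 of the Fanconi anaemia pathway, had an interaction of -1.65 (SE 0.36, limma adjusted p 0.0129, kept in 5 of 8). Splicing factors had 8 of 63 higher and 1 lower (quantile 7 and 2, same median 3 and 17), with a median of 0.21 (-0.35 after same-median scaling), and the lower one was Hnrnph1 at -0.88 (kept in 3 of 8, lost under quantile at -0.53 and same sum at -0.70). Hnrnpa1, an abundant RNA-binding protein, had the highest interaction of the list at 4.91, followed by Hnrnph2 (2.67, lost under quantile at 1.87), Hnrnpab (1.39) and Srsf9 (1.04, kept in 3 of 8, lost under same median at 0.49), and Snrpe was not called (0.60, called higher under quantile at 1.04).

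HSP chaperones had 6 of 22 members called higher and 1 lower, Dnaja1 (quantile 4 and 0, same median 5 and 11), with a median of -0.41 (0.22 without a filter). Hspe1 and Hspd1, the paired mitochondrial chaperonins, had interactions of 4.34 (SE 0.41) and 3.48 (SE 0.35). Hspb1, a small heat shock protein, had an interaction of 3.43 (kept in 3 of 8, lost under quantile at 2.66) and Dnajb7 of 3.82 (kept in 2 of 8, lost under quantile at 3.01 and same median at 3.32). Hsp90aa1, the inducible cytosolic HSP90, had an interaction of -1.11 that was not called, and was called lower under same median at -1.67 and same sum at -0.93. Histone genes had 4 of 21 higher and 1 lower (quantile 4 and 1, same median 4 and 6), with a median of 0.12 that was -0.03 after same-median scaling. H2afz was the lower one, and its close relative H2afv was listed at 234 and 216 FPKM (WT LZ), 220 and 217 (Cnot4-null LZ), 25.4 and 20.9 (WT PD) and 103 and 99.2 (Cnot4-null PD), with an interaction of 2.13 (SE 0.27, limma adjusted p 0.00176), so the genes for both H2A.Z proteins took opposite directions under each scaling. H2afb1, a spermatid variant, had an interaction of 4.34 (kept in 6 of 8) and Hist1h2bc of 5.33, while H3f3b was not called (-0.31, 0.21 after quantile normalization, called lower under same median at -0.87). Kinesins and tubulins had 10 of 36 higher and 2 lower (quantile 4 and 6, same median 8 and 8), with a median of 0.47 that was -0.14 after quantile normalization and -0.03 after same-median scaling. Tuba8 was at 5.34, Tuba1a at 4.50, Tubb5 at 4.44 and Kif2b at 3.97 (kept in 2 of 8), while Tubb4b was not called (-0.10, 0.34 after quantile normalization). The Zfp genes, most of them zinc finger transcription factors, had 26 of 145 higher and 19 lower (quantile 4 and 48, same median 18 and 41), with a median of 0.04 that was -0.94 after quantile normalization and -0.44 after same-median scaling. The 3 highest were Zfp36 and its relatives, which bind RNA, and the next was the X-linked Zfp185 (3.19, lost under quantile at 1.93), a cytoskeletal LIM protein, while Zfp672 was not called (-0.89, called lower under same median at -1.44). The ADAM family had 2 of 10 higher, the widely expressed proteases Adam10 (2.63, lost under quantile at 1.21) and Adam15 (2.60, lost under quantile at 0.93), and 0 lower (quantile 0 and 0, same median 2 and 2), and the sperm member Adam5 was not called (-0.88).

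The largest interactions among the protein-coding genes tested included Insl3, Ptgds, Myl9 and Apoe, which are in the cell type lists, and genes in none of the lists. Ptgds, a prostaglandin synthase of Leydig and other somatic cells, was listed at 866 and 1920 FPKM (Cnot4-null PD) against 16.0 and 1.37 (WT PD). Insl3, a peptide hormone made by Leydig cells, was listed at 15.0 and 8.75 FPKM (WT LZ), 8.25 and 16.9 (Cnot4-null LZ), 104 and 4.90 (WT PD) and 9669 and 21608 (Cnot4-null PD). Both Cnot4-null PD libraries stood far above the other 6 for each gene, and among WT PD libraries replicate 1 was the higher. The interactions were 9.83 (SE 1.28, limma adjusted p 0.00202) and 9.14 (SE 1.69, adjusted p 0.00705). Fabp3, a fatty acid carrier, followed at 8.42, then Aldh1a1, which makes retinoic acid, at 8.41, the glutathione transferases Gstm2 at 8.34 and Gstm1 at 8.01, whose sequences are alike enough to share reads, and Myl9, a smooth muscle myosin light chain, at 8.20. Lcn2, a secreted lipocalin, had an interaction of 7.65, Apoe, an apolipoprotein of macrophages and other somatic cells, of 7.60, and Ifitm2, an interferon-induced membrane protein, of 7.40.

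Marker lists of the other cell types of the testis were read in every library. A marker could pass the filter on the mean through high Cnot4-null PD values alone, so the share of tested markers that was called depends on the outcome and is not given for these lists. Instead, all members found were read, tested or not, by whether both Cnot4-null PD values lay above both WT PD values. This held for 9569 of the 20476 protein-coding genes found, tested or not, and for 12 of 13 Leydig cell markers. The summed FPKM of the list was 128 and 123 (WT LZ), 112 and 109 (Cnot4-null LZ), 387 and 250 (WT PD) and 11548 and 25004 (Cnot4-null PD), where Insl3 was the most abundant at 9669 and 21608. In the other libraries Fdx1, which germ cells also express, was the most abundant, and its interaction of -0.26 was not called, was 0.16 after quantile normalization and was called lower under same median at -0.82. Lhcgr and Hsd17b3, which define Leydig cells, were listed at 0 in the 4 LZ libraries and in WT PD replicate 2, and all 13 markers were at 1 FPKM or more in both Cnot4-null PD libraries. Hsd3b1, a steroid dehydrogenase of Leydig cells, had an interaction of 6.86 (SE 0.73, limma adjusted p 0.00117), and Akr1cl had one of 7.03.

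The same held for 10 of 10 peritubular myoid markers. Their sums were 21.3 and 35.4 (WT LZ), 19.8 and 11.0 (Cnot4-null LZ), 15.6 and 11.9 (WT PD) and 210 and 692 (Cnot4-null PD), with Myl9 the most abundant there at 85.4 and 293 FPKM. Acta2, smooth muscle actin, had an interaction of 5.80, Tpm2, a tropomyosin, of 4.62 (lost under quantile at 3.75) and Tagln, transgelin, of 3.87 (lost under quantile at 2.54), while Mylk was not called (1.27). For stromal matrix markers this held for 18 of 20, with sums of 59.7 and 41.1, 44.3 and 44.4, 30.7 and 10.9, and 552 and 1173 in the same order. Dcn, decorin, was the most abundant in Cnot4-null PD at 210 and 455 FPKM, with an interaction of 6.88 (kept in 4 of 8), and Sparc (6.91), Igfbp7 (5.14) and Bgn (4.80) also encode matrix proteins. The sums of these lists were thus highest in both Cnot4-null PD libraries, but not every member was. Fn1, fibronectin, was at 12.3 FPKM or more in each LZ library and at 2.93 and 7.16 (Cnot4-null PD) against 0.268 and 0.145 (WT PD), and Lum, lumican, was below 1 FPKM in every library.

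The comparison held for 19 of 19 macrophage markers, and the members called were Apoe, Tyrobp (4.49, kept in 2 of 8, lost under quantile at 3.63) and H2-Eb1 (3.01, kept in 2 of 8, lost under quantile at 2.14 and same median at 2.74), with sums of 114 and 37.7 (WT LZ), 96.6 and 28.3 (Cnot4-null LZ), 12.9 and 9.81 (WT PD) and 326 and 900 (Cnot4-null PD), where Apoe was the most abundant at 182 and 462. H2-Ab1 was not called (2.81). For Sertoli cell markers the same comparison held for 13 of 20, beside 9569 of 20476 protein-coding genes. The Sertoli sums were 388 and 338 (WT LZ), 174 and 137 (Cnot4-null LZ), 45.5 and 112 (WT PD) and 242 and 396 (Cnot4-null PD). The sum in Cnot4-null PD was thus near that in WT LZ. Clu, clusterin, was listed at 55.9 and 47.4 FPKM (WT LZ), 4.56 and 6.88 (Cnot4-null LZ), 8.06 and 15.3 (WT PD) and 94.6 and 196 (Cnot4-null PD) and had an interaction of 6.48, Vim, vimentin, of 5.22, Aard of 3.89 and Inha, the inhibin alpha subunit, of 3.36 (kept in 5 of 8, lost under quantile at 1.55). Cst12, a cystatin, was not called (2.40). The defining Sertoli genes Amh and Fshr were each listed at 0 in 7 of the 8 libraries. For endothelial markers the comparison held for 9 of 12, beside the same 9569 of 20476 protein-coding genes. Egfl7, the only endothelial marker tested, was called higher (3.45). The endothelial sums were 21.5 and 26.5, 25.4 and 22.1, 0.705 and 0.416, and 14.1 and 25.7 in the same order. Egfl7 made up most of each LZ sum, at 20.4 and 25.3 FPKM (WT LZ) and 24.0 and 20.7 (Cnot4-null LZ). No other endothelial marker reached 1 FPKM at LZ. Markers of red blood cells summed to less than 1 FPKM in every library, and none was tested.

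Spermatocyte markers served as a check of the label. Their sum over 15 genes was 1777 and 2223 (WT LZ), 3499 and 1976 (Cnot4-null LZ), 13217 and 12371 (WT PD) and 6371 and 2476 (Cnot4-null PD), with Ldhc the most abundant at PD (10594 and 9725 in WT, 4585 and 1474 in Cnot4-null). Of 14 tested members 1 was called higher, Dmc1, and 3 lower, Sycp2, Sycp3 and Hormad1, and 3 of the 15 (Sycp1, Dmc1 and Prdm9) lay above WT PD in the comparison used for the other lists. The sum, of which Ldhc was the largest part, was lowest among PD libraries in Cnot4-null PD replicate 2, where the Leydig, myoid, stromal and macrophage sums were highest. With the genes of the cell type lists left out of the count, an alternative chosen after seeing the data, 2740 of the 2772 genes of all biotypes called higher and each of the 562 called lower were left. These lists hold a small share of the genes that such cells express, so that count does not measure what they contribute. How far sorting removed such cells was not measured, and their part in the result was not tested.

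**Figure D4:**
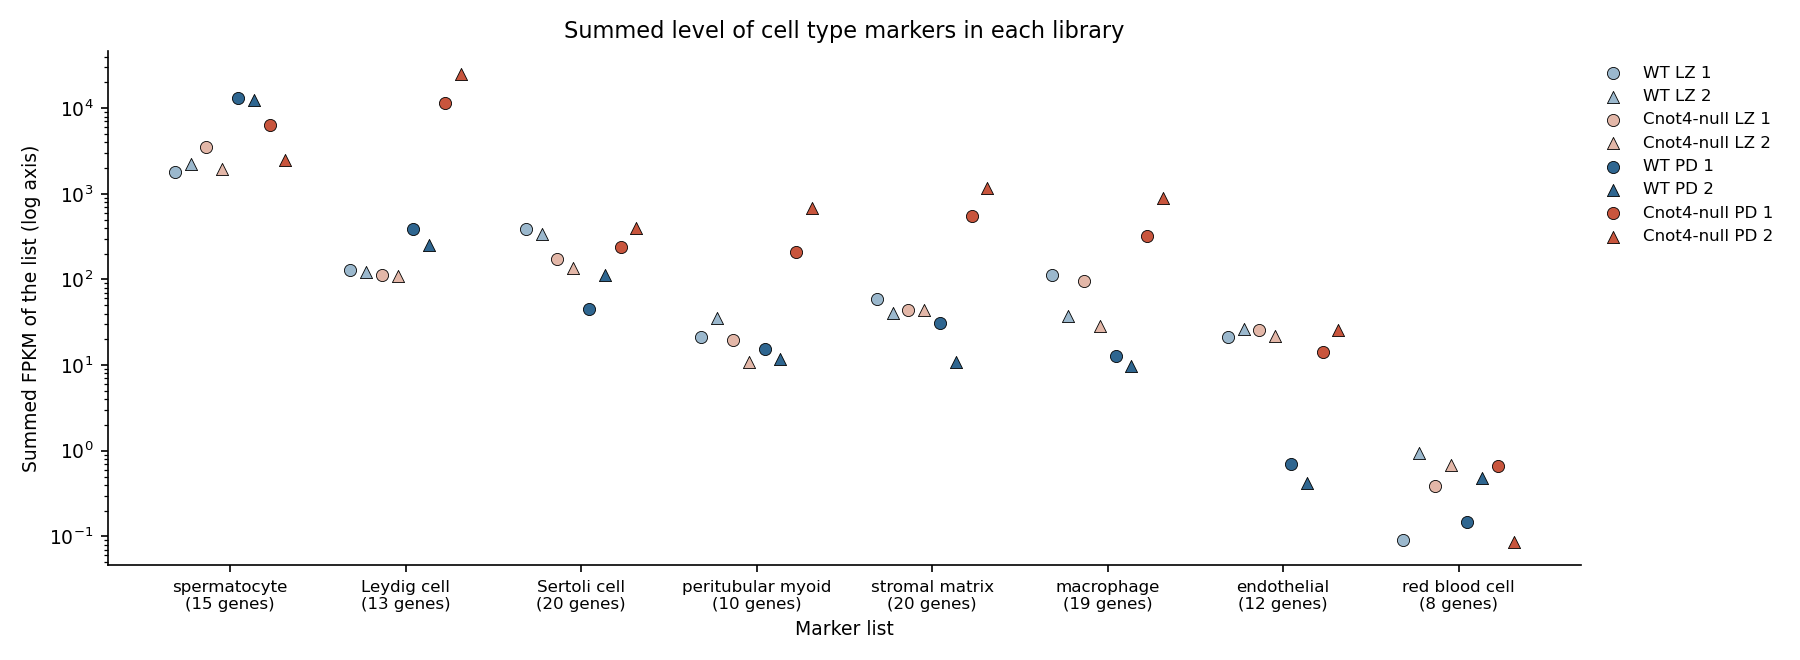
Summed FPKM of each marker list (log axis) in the 8 libraries, with the number of genes found per list, circles for replicate 1 and triangles for replicate 2. The Cnot4-null PD libraries hold the highest Leydig (11548 and 25004), myoid, stromal and macrophage sums, and among PD libraries the lowest spermatocyte sums (6371 and 2476).

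The most negative interactions were in genes high in WT PD. Tmed6, a trafficking protein of the p24 family, was listed at 0.236 and 0.670 FPKM (WT LZ), 2.52 and 2.23 (Cnot4-null LZ), 94.6 and 101 (WT PD) and 23.5 and 5.16 (Cnot4-null PD), with an interaction of -4.24 (SE 0.81, limma adjusted p 0.00795), -4.57 relative to the median of all genes. Neil3, a DNA glycosylase for oxidized bases, was listed at 1.67 and 1.36 FPKM (WT LZ), 2.27 and 5.03 (Cnot4-null LZ), 27.0 and 33.3 (WT PD) and 2.88 and 2.49 (Cnot4-null PD), with an interaction of -3.90 (SE 0.50, limma adjusted p 0.0019). In both genes WT PD was at least 10 times WT LZ, and Cnot4-null PD lay well below WT PD. Moap1, a modulator of apoptosis, had an interaction of -3.96 (limma adjusted p 0.0175) that was kept in 2 of 8. Epyc, a small leucine-rich proteoglycan gene, had an interaction of -3.76 (kept in 7 of 8), Olfr1188, an olfactory receptor gene, of -3.72 (kept in 7 of 8), and Csrp2, a LIM protein, of -3.18 (kept in 2 of 8). The rest were Gm10754 (-3.36, kept in 2 of 8), 4933402N22Rik (-3.07), 1700060C20Rik (-3.06, kept in 2 of 8) and Ppp1r27 (-3.05, kept in 2 of 8), a regulatory subunit of protein phosphatase 1.

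Among the most abundant genes with a lower interaction, Calm2, a calmodulin, was listed at 820 and 934 FPKM (WT LZ), 924 and 857 (Cnot4-null LZ), 3490 and 3740 (WT PD) and 1168 and 848 (Cnot4-null PD). The Cnot4-null PD values were near the LZ level, while WT PD was about 4 times higher, with an interaction of -1.88 (SE 0.30, limma adjusted p 0.00393) that was called without each single library. Taf9, a subunit of TFIID and SAGA, had an interaction of -1.52 (SE 0.41), kept in 2 of 8. Cox7b2 and Cks2, described above, and 1810006K21Rik (-1.07, kept in 2 of 8) made up the rest. Among the most abundant genes with a higher interaction were Rps18 (1.08, kept in 2 of 8, lost under same median at 0.52), which encodes a ribosomal protein, and Snrpg (1.03, kept in 2 of 8, lost under same median at 0.47), a core protein of spliceosomal particles. Lars2, the mitochondrial leucyl-tRNA synthetase, was listed at 5819 and 5479 FPKM (WT LZ), 3420 and 6062 (Cnot4-null LZ), 234 and 629 (WT PD) and 2277 and 10826 (Cnot4-null PD), with an interaction of 4.002 (SE 1.07, limma adjusted p 0.0256), kept in 3 of 8. Its Cnot4-null PD libraries differed from each other by more than a factor of 4.

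**Figure D5:**
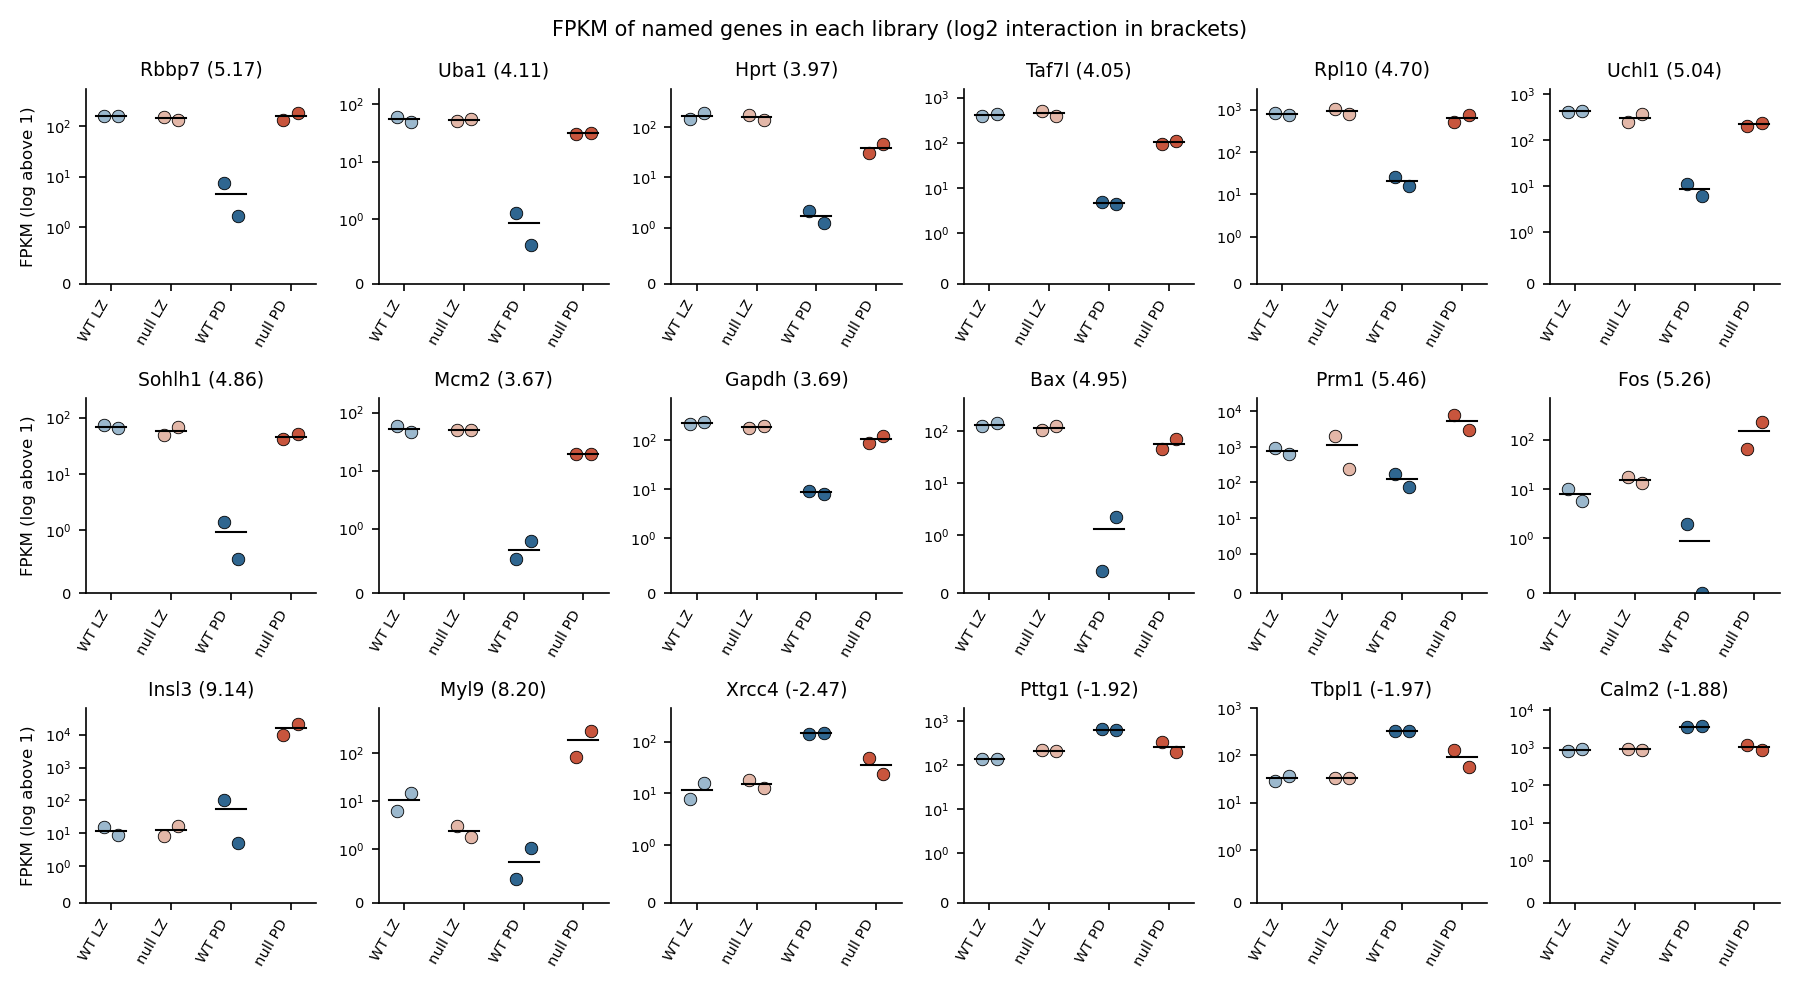
FPKM of 18 named genes in each library (vertical axis linear to 1 and logarithmic above), with the group mean as a bar and the log2 interaction in brackets. X-linked, meiotic entry, replication and apoptosis genes are lowest in WT PD, and Taf7l, Hprt, Uba1, Mcm2 and Bax among them are also lower in Cnot4-null PD than at LZ. Prm1, Fos, Insl3 and Myl9 are highest in Cnot4-null PD, and Xrcc4, Pttg1, Tbpl1 and Calm2 are highest in WT PD.

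Each group held 2 libraries, so a gene's spread was estimated with the help of all genes. The labels describe library construction from total RNA with the TruSeq kit, whereas the study's methods describe Smart-Seq2 amplification of cDNA from sorted cells, and which of them gave these values was not determined.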

How the data were processed

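The deposited FPKM values of the authors, made with TopHat2 2.1.1 and Cufflinks 2.2.1 on mm9, were used as log2(FPKM + 1). Genes with a mean of at least 5 FPKM over the 8 libraries were kept. limma 3.58.1 in R 4.3.3 fitted 4 group means with an intensity trend, and the interaction contrast was adjusted by the Benjamini-Hochberg method over 9348 genes, with a limit of 0.05. Tables were made with Python 3.11.15, pandas 2.3.3, numpy 2.4.6 and matplotlib 3.10.9. Positions and biotypes came from GENCODE vM1, and promoters from RefSeq. Members, lists and settings were chosen with earlier results of these data known.

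Genes named were, by a fixed rule, the called genes with the largest interactions in each direction whose differences between single libraries at PD lay beyond those at LZ, the 5 most abundant called genes in each direction, those also called at LZ, up to 4 called members and the most abundant uncalled member of each list, the genes the study names and the CCR4-NOT subunits. Further genes, named for small counts, as X-linked or Y-linked examples, as list members beyond the rule and as paralogue pairs, were chosen after their values were seen. Alternatives covered filters, pseudocounts, scalings, variance models, a replicate block, the limit and the omission of each library. Some genes the rule names are not reported here.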

Additional observations from a re-analysis of the deposited data

Results flagged for a closer look

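What drew attention to each of these results was a tested difference between the stages, the limma interaction of genotype and stage. The genotype effect was higher at PD than at LZ in 2673 protein-coding genes and lower in 524, beside a median interaction of 0.33 over all genes. Among the X-linked genes, 246 of 279 were called higher. Apoc2, whose genotype effect was also called at LZ, had an interaction of 1.87, and Hddc3, the other gene called at LZ with an interaction called, one of -2.48. The causes of these differences were not tested.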

How the results depend on the processing

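The counts changed with the scaling, the filter, the limit and the libraries used, and the medians with the scaling, the filter and, for X-linked genes, the pseudocount. Quantile normalization gave 1272 genes higher and 1274 lower of all biotypes (50.0% higher, against 83.1% as reported), 120 X-linked genes higher, and medians of -0.22 over all genes and 1.52 over X-linked genes. Scaling to the same median gave 2181 genes lower, 49.5% higher, and medians of -0.18 and 2.46. Scaling to the same sum gave 3005 genes higher and 658 lower (82.0% higher), and medians of 0.51 and 3.09. The cause was not tested. The study's filter (FPKM above 1 in at least 1 library) gave 4770 calls, and medians of 0.64 over all genes and 1.98 over X-linked genes, and no filter gave medians of 0.17 and 1.23, with 2 X-linked genes called lower. A mean of at least 1 FPKM in each group gave 1788 genes higher, 86 X-linked genes higher of the 101 tested, and medians of 0.18 and 3.35. A mean of at least 20 FPKM gave 1395 calls, 1091 higher and 304 lower, 99 X-linked genes higher of the 106 tested, and medians of -0.014 and 3.64. These filters test different genes. The median of X-linked genes was 4.003 with a pseudocount of 0.1 and 1.55 with a pseudocount of 5, which stretch and compress low values. A limit of 0.01 gave 1530 calls, 1470 higher and 60 lower, which is 96.1% higher. Alternatives for X-linked genes other than scaling were chosen after seeing the data, as were counts without the cell type markers (3302 calls, 2740 higher and 562 lower) and without X-linked and Y-linked genes (3082 calls, 2520 higher and 562 lower). No gene called as reported was called in the opposite direction under any alternative.

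When each library was left out in turn, a group of 1 library was assumed to vary like the others. The total ran from 1725 to 4818, the higher calls from 1670 to 3068, the lower calls from 55 to 1750, the share higher from 63.7% to 96.8%, the median from 0.263 to 0.421, the X-linked higher calls from 192 to 250 and the X-linked median from 2.66 to 2.87. The total was 2200 without WT LZ replicate 1, 2140 without Cnot4-null LZ replicate 2, 1790 without WT PD replicate 1 and 1725 without WT PD replicate 2. The higher calls were 1709 and 1670 without the WT PD replicates 1 and 2. The lower calls were 181 and 285 without the WT LZ replicates 1 and 2, 159 and 253 without the Cnot4-null LZ replicates, 81 and 55 without the WT PD replicates, and 1750 without Cnot4-null PD replicate 1. Fewer libraries leave fewer residual degrees of freedom, and the cause of the rise to 1750 was not tested.

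Replicates of different groups share only a number. With the number as a replicate block, 3270 genes were called (2701 higher and 569 lower), 237 of them X-linked and higher. Deviations of the replicates correlated between groups from -0.059 to 0.201, which gives no pairing to use.

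Of 222 genes named in the text, 172 were called, 87 under every alternative and 104 without each single library. Calls lost were 48 and 47 without the WT LZ replicates 1 and 2, 43 and 44 without the Cnot4-null LZ replicates, 56 and 61 without the WT PD replicates, and 10 and 16 without the Cnot4-null PD replicates. Quantile normalization lost 36 and no filter 59. The interactions of Brca1 (-0.036), Pms2 (-0.408) and Sgol1 (-0.042) turned negative after quantile normalization. For reversed genes and for these losses, the cause was not tested. How depth limits the values was not measured.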

Other observations

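Some X-linked genes have an autosomal counterpart expressed in the testis, and their interactions stood apart from those of the counterparts. The pairs were chosen after their values were seen. Pgk1, the X-linked phosphoglycerate kinase, had an interaction of 2.34 (lost under quantile at 1.25) and its counterpart Pgk2 of -1.30, which was not called. Pdha1, a subunit of pyruvate dehydrogenase, had an interaction of 2.05 (kept in 7 of 8, and not called after quantile normalization at 0.59) and Pdha2 of -1.36 (limma adjusted p 0.0486, kept in 2 of 8). Rpl10 had an interaction of 4.70 and Rpl10l of -0.65 (called lower under same median at -1.20), and Rpl39 one of 5.18 and Rpl39l of -1.16 (called lower under quantile at -0.93, same median at -1.72 and same sum at -0.98), with both counterparts not called as deposited. Cstf2, a polyadenylation factor, had an interaction of 2.81 and Cstf2t of -0.77, which was not called as deposited and was called lower under quantile at -1.11 and same median at -1.31. Copies this similar can share reads.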
